A study of Mus musculus with 2 samples.

Results

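The genes described here make, modify and move cholesterol and fatty acids. They are 34 genes, chosen by name, of 31896 gene names on the array: 20 of sterol synthesis and its control by SREBP2, 7 of fatty acid synthesis and its control by SREBP1, and 7 of sterol transport and storage. Every probe whose gene name in the scanner files matched a member was taken, which gave 47 probes of 39429, printed as 56 spots on each array. All 34 genes had at least 1 probe well above background in all 4 readings. The dim second probe of Stard4 and the dimmest of the 4 Acaca probes were below that mark in every reading.

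The cells were mouse ZHBTc4 embryonic stem (ES) cells, in which both Oct4 alleles are disrupted and a transgene that doxycycline switches off supplies Oct4. There were 3 monoclonal lines, each stably transfected with a pCAG-IP vector, whose CAG promoter is active in most cell types: pCAG-IP/EGFP (clone 2-5), pCAG-IP/Oct4-EGFP (clone 9) and pCAG-IP/Nr5a2-EGFP (clone 26). All 3 grew without feeder cells in 15% serum with 1000 IU/ml LIF and were harvested after doxycycline, so the regulated Oct4 was off in every group and only the Oct4-EGFP line had a replacement. The sources used here do not give the time in doxycycline. RNA was hybridised on 2 two-colour arrays: the EGFP array held the EGFP line in Cy3 and the Nr5a2-EGFP line in Cy5, and the Oct4 array held the Oct4-EGFP line in Cy3 and the Nr5a2-EGFP line in Cy5 again. Each construct was carried by 1 clone, each pair of clones was read on 1 array, and the dyes were not swapped. Construct, clone and dye therefore cannot be told apart in the direct ratios, and no difference could be tested.

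Values are log2 levels of a channel after background correction, loess and scaling between arrays, or log2 ratios, the difference of the levels on 1 array. A level depends on its probe and is compared only within that probe. A gene is counted as called where its ratio was 1 or more above or below 0 on the log2 scale, a 2-fold difference. For genes with several probes the brightest gave the gene's value. Oct4-EGFP was set against EGFP indirectly, as the difference of the ratios of both arrays, with the difference of the Cy3 levels beside it. Both direct comparisons share the Nr5a2-EGFP line, so they are not independent of each other or of the indirect comparison. The readings of the Nr5a2-EGFP line on both arrays were the only repeat: over 25506 genes their log2 difference had an SD of 0.30, and over the 34 lipid genes it was 0.23. Of the lipid genes, 31 repeated within 0.3 and the exceptions were Npc2 (0.90), Abcg1 (0.65) and Elovl6 (-0.36).

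Between 78.1% and 80.1% of 43020 spots lay well above background in each channel. Nr5a2 had log2 levels of 11.30 (EGFP), 11.58 (Oct4-EGFP), 10.38 and 10.44 (Nr5a2-EGFP), and Pou5f1, which encodes Oct4, had 7.61, 7.59, 7.49 and 6.69. The Nr5a2 level was lowest in the line that carried its construct, by a log2 difference of -0.92 from EGFP and -1.14 from Oct4-EGFP. For Pou5f1 the Cy3 levels of Oct4-EGFP and EGFP differed by -0.02, whereas the ratio of Nr5a2-EGFP over Oct4-EGFP was -0.90 and the indirect ratio 0.78. These rest on the Nr5a2-EGFP reading of the Oct4 array, which was not well above background and lay 0.80 below the other. The sources used here do not say which part of either transcript the constructs carry, and the labels are therefore not checked by these probes. Markers of ES cells had a summed linear level of 108561 in the EGFP line, 250391 in the Oct4-EGFP line, and 71530 and 83958 in the Nr5a2-EGFP line, with 7 of 7 well above background in every reading. These sums hold Nanog, at log2 levels of 16.28, 16.15, 15.67 and 15.74 with the last 3 saturated, and Fgf4, saturated in the Oct4-EGFP line. Over the 5 markers with no saturated reading, a subset chosen after seeing the data, they were 21275, 103923, 17585 and 16600. Singly, these markers repeated less well in the Nr5a2-EGFP line than the sums do. The log2 reading on the Oct4 array less that on the EGFP array was 1.45 (Esrrb), -1.14 (Zfp42), 0.63 (Tdh), 0.53 (Klf4) and -0.50 (Sox2). It was 2.93 for Fgf4 and 0.06 for Nanog. Differences of opposite sign partly cancel in a sum. Trophoblast markers gave 60874 (EGFP), 16448 (Oct4-EGFP), 66637 and 66508 (Nr5a2-EGFP), with 7 of 8 above background and Elf5 below it throughout. The similar sums of the EGFP and Nr5a2-EGFP lines hold differences in both directions. Over EGFP, 5 of the 7 measured markers were above 0 and 2 below, from 1.00 (Gata3) to -1.27 (Hand1). Visceral and primitive endoderm, which handles lipid in the embryo, had sums of 2515 to 3226 over 8 markers, of which 4 to 6 were above background and Afp was below it in every reading. Fibroblast markers, 5 of 5 above background, gave 8939, 14476, 7696 and 8397. The higher sum of the Oct4-EGFP line came from Thy1 and Pdgfrb, with indirect ratios of 0.51 and 1.38. The collagen genes Col1a1 (-0.11), Col1a2 (-0.38) and Col3a1 (-0.18) were below 0, and the median of the 5 was -0.11. Among 4 liver genes (5389, 9163, 6740 and 9356), Alb and Cyp7a1 were below background in every reading. The part of these cell states in the lipid values was not tested.

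Cells make cholesterol from acetyl-CoA through mevalonate, squalene and lanosterol. When sterol in the endoplasmic reticulum is low, SCAP escorts the SREBP transcription factors to the Golgi, where they are cut and released to the nucleus; INSIG proteins hold SCAP back when sterol is plentiful. SREBP2 mainly drives sterol synthesis genes and SREBP1 fatty acid synthesis genes, together with NF-Y and Sp1 at nearby sites, while the oxysterol receptors LXR drive the efflux genes Abca1 and Abcg1. Nr5a2 is a nuclear receptor known for its control of cholesterol and bile acid genes in liver.

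Promoter sequences were read from the RefSeq table (GRCm38.p6), which held 26 of the 34 genes; those without an entry were Stard4, Abcg1, Scd1, Scd2, Sqle, Npc1, Fdft1 and Fdps. In the 250 bases before a start, on both strands, letters were searched for the sterol response element (TCACNCCAC), NF-Y (CCAAT), the GC box bound by Sp1 (GGGCGG), Nr5a2 (CAAGGTCA and CAAGGCCA) and LXR (2 copies of AGGTCA spaced by 4 bases). The letters CCAAT were found in 15 of the 17 sterol synthesis genes, 2 of 5 fatty acid genes and 2 of 4 transport genes, against 37.5% of 27025 genes and 33.8% of all 32851 promoters. GGGCGG was in 16 of 17, 2 of 5 and 2 of 4, against 35.4% of genes and 32.7% of promoters. TCACNCCAC was found in 1 member, Hmgcs1, and in 1.22% of genes and 1.05% of all promoters. A longer form of the sterol element, which holds these letters, was in 0 members, 0.0814% of genes and 0.0731% of promoters. CAAGGTCA was found in Dhcr7 (1.51% of genes, 1.33% of promoters) and CAAGGCCA in Acaca and Elovl6 (2.32% and 1.99%). The LXR letters were in no member (0.0148% and 0.0152%). A match shows that the letters are there, not that a factor binds. A lack of exact letters in 250 bases does not show that a gene has no such element.

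Promoters are shown for 4 sterol genes whose levels are described below: Hmgcs1 and Tm7sf2, which had the highest and lowest ratios of the synthesis group over Oct4-EGFP, and Insig1 and Dhcr7, which were highest in the EGFP line. Each runs 5′ to 3′ on the gene's strand and ends at the base before the start. Capitals mark TCACNCCAC, CCAAT, which is ATTGG where it lies on the opposite strand, and CAAGGTCA.
Hmgcs1 (chr13:119690101-119690350, plus strand): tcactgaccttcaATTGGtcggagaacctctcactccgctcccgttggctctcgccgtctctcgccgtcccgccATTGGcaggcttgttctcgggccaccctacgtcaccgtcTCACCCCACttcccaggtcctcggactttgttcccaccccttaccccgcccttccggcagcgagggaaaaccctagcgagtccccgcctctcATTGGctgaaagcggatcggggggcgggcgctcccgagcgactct
Insig1 (chr5:28071162-28071411, plus strand): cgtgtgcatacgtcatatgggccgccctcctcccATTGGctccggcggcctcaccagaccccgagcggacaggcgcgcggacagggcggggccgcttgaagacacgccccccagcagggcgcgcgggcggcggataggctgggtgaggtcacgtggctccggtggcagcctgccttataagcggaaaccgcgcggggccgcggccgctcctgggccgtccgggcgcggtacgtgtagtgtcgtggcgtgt
Tm7sf2 (chr19:6067851-6068100, minus strand): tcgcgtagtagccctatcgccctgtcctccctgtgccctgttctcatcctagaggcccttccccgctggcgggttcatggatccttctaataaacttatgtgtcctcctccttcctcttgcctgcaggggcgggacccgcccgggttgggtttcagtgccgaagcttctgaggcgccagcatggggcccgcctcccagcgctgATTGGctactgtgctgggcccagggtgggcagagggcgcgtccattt
Dhcr7 (chr7:143822917-143823166, plus strand): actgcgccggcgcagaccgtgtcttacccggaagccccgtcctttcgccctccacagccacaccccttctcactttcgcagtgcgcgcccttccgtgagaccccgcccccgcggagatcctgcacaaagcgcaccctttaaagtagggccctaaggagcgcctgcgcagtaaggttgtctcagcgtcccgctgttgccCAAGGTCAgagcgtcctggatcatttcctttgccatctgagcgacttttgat
In Hmgcs1 the sterol element letters lay at bases -137 to -129, between ATTGG matches at -176 to -172 and -45 to -41, with another at -237 to -233. The Dhcr7 stretch is 1 of 3 starts of that gene and has the Nr5a2 letters at -52 to -45. The 2 CCAAT matches of Dhcr7 belong to another start. Insig1 and Tm7sf2 had 1 CCAAT match each, at -216 to -212 and -47 to -43.

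Nr5a2-EGFP was first compared with EGFP alone, neither line having a source of Oct4 after doxycycline. Of the 34 genes, 0 were called higher and 2 lower, Insig1 and the efflux gene Abcg1, where 3.34% of 25998 genes were called higher and 5.07% lower. At 1.5-fold, 9 were higher and 6 lower, against 12.8% and 14.4% of all genes. The median of the members was 0.03, the same as that of all genes. By role the medians were 0.10 (sterol synthesis), 0.23 (fatty acid synthesis) and -0.43 (sterol transport), and 6 of the 7 transport genes had ratios below 0 (5 of 7 when centred on the median, where Abca1 had 0.13), as had 12375 of all 25998 genes. Over Oct4-EGFP, 4 of the 7 were below 0, as were 12855 of 26095 genes. The balance depended on the scaling: centring each array on its median in place of loess moved the median of all genes to 0.16 and the share of higher genes among calls from 39.8% to 63.5%. Hmgcs1, Srebf2, Srebf1, Acly and Scd1 were then called higher, and Abcg1 alone lower, where 5.99% and 3.44% of all genes were called at that setting.

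Nr5a2-EGFP was next compared with Oct4-EGFP, the line that kept an Oct4 source. Hmgcs1, Fdft1 and Scd1 were called higher and Tm7sf2, Elovl6 and Abcg1 lower, against 4.54% and 7.11% of 26095 genes. At 1.5-fold, 8 were higher and 7 lower, against 12.9% and 16.1%. The median of the members was 0.10 (all genes 0.01), with 0.11 for sterol synthesis, 0.11 for fatty acid synthesis and -0.25 for transport. In the indirect comparison of Oct4-EGFP with EGFP, 3 genes were called higher (Tm7sf2, Srebf1, Elovl6) and 3 lower (Insig1, Acaca, Npc2), against 6.4% and 5.78% of 26701 genes. At 1.5-fold, 8 were higher and 7 lower, against 15.8% and 14.4%, and the median was 0.08 (all genes 0.02). Dhcr7 lay just outside the mark, 2-fold lower after rounding, and Tm7sf2 just inside it at 1.02. From the Cy3 levels alone, Tm7sf2, Srebf1 and Abcg1 were called higher and Dhcr7, Insig1 and Acaca lower, where 8.56% and 7.68% of genes were called. In these counts the lipid genes as a group thus had no common direction in any of the 3 comparisons. The largest single difference was that of Abcg1, 4.52-fold lower than in EGFP and 6.49-fold lower than in Oct4-EGFP. In the indirect comparison the largest was that of Srebf1, at 2.55-fold.

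**Figure D1:**
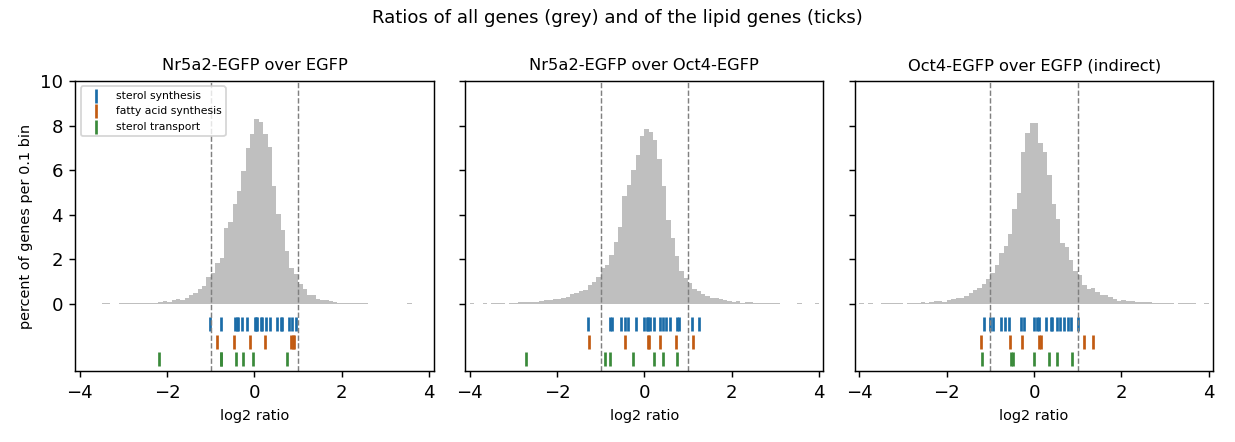
Histograms of log2 ratios of all genes (grey, percent of genes per 0.1 bin, values beyond 4 set at 4) in the 3 comparisons, with a tick for each lipid gene by role and dashed lines at the 2-fold mark. The lipid genes lie across the centre of the distribution, with medians of 0.03, 0.10 and 0.08, and Abcg1 is the far-left tick of the direct comparisons.

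**Figure D2:**
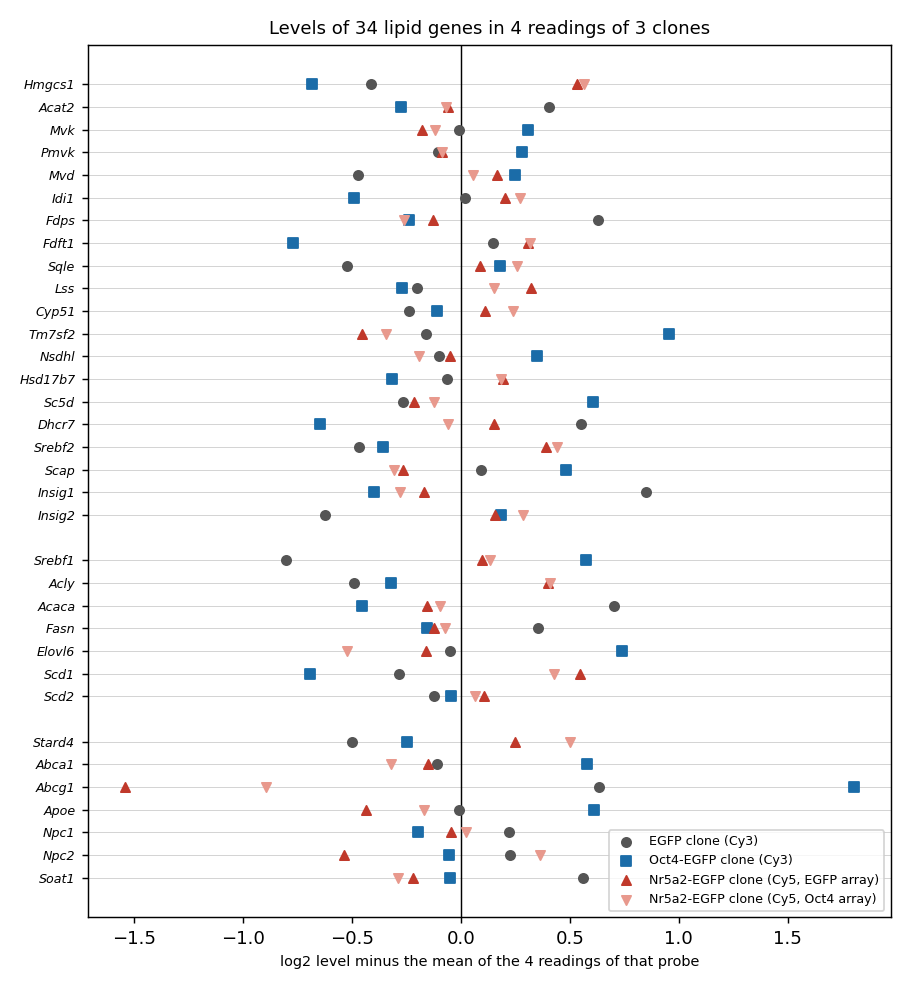
For each of the 34 genes, the log2 level of its brightest probe in the 4 readings, less their mean: EGFP line (circle), Oct4-EGFP line (square) and Nr5a2-EGFP line on both arrays (triangles). The triangles lie within 0.3 of each other for 31 genes, while circle and square are at opposite ends for Insig1, Dhcr7, Acaca and Srebf1.

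The regulators of the pathway differed from one another. Insig1, the sterol-sensitive anchor of SCAP and itself an SREBP target, had log2 levels of 9.93 in the EGFP line, 8.68 in the Oct4-EGFP line, and 8.91 and 8.80 in the Nr5a2-EGFP line (mm9 chr5:28404246-28404305). The EGFP line was high and the other lines lay close together. The ratio over EGFP was -1.01 (2.02-fold lower), the ratio over Oct4-EGFP 0.12, and the indirect ratio -1.14 (-1.25 from the Cy3 levels). Its paralogue Insig2 had 12.03 in the EGFP line, 12.84 in the Oct4-EGFP line, and 12.81 and 12.94 in the Nr5a2-EGFP line, with ratios of 0.78 and 0.09. At the brightest Insig2 probe it was thus the EGFP line that was low, the reverse of Insig1, but the other Insig2 probe gave -0.03 and -0.08.

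Srebf1, which encodes SREBP1, had 8.87 in the EGFP line, 10.25 in the Oct4-EGFP line, and 9.77 and 9.81 in the Nr5a2-EGFP line (chr11:60012664-60012723). The Nr5a2-EGFP readings lay between the other lines, at 0.90 relative to EGFP and -0.44 relative to Oct4-EGFP. The indirect ratio of 1.35, or 1.39 (2.61-fold) from the Cy3 levels, was the highest of the members. Srebf2, which encodes SREBP2, had 13.70, 13.81, 14.56 and 14.61 in the same order, so that both Nr5a2-EGFP readings were above both other lines. Its ratios were 0.86 and 0.80, whereas its dimmer probe gave -0.10 and -0.08. Scap had 13.06, 13.45, 12.70 and 12.66, with ratios of -0.37 and -0.78.

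Among the enzymes of the early, mevalonate part, Hmgcs1, the HMG-CoA synthase that feeds it, had 14.74 (EGFP), 14.47 (Oct4-EGFP), 15.69 and 15.72 (Nr5a2-EGFP). Its probe is on an unplaced piece of mm9 chromosome 13 and was saturated in both Nr5a2-EGFP readings. After loess, the Nr5a2-EGFP line was thus at least 1.94-fold above the EGFP line and at least 2.39-fold above the Oct4-EGFP line. With the software's processed signals the log2 ratios of Hmgcs1 were lower, at 0.75 and 1.00. Acat2, the cytosolic thiolase, had 16.16, 15.48, 15.70 and 15.69, the last pair saturated, and the Cy3 levels put it 1.6-fold lower in Oct4-EGFP than in EGFP cells. Mvk, mevalonate kinase, was saturated at its brightest probe in the Oct4-EGFP and Nr5a2-EGFP readings, and its unsaturated probe had ratios of -0.43 and 0.38. Pmvk, the next kinase, had 0.18 and -0.46 at its unsaturated probe. Mvd, the decarboxylase, had 13.77, 14.49, 14.41 and 14.30, with the EGFP line low, and Idi1, the isomerase, had 11.83, 11.32, 12.01 and 12.08, with the Oct4-EGFP line low.

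The enzymes that build squalene and the sterol ring also split. Fdps, farnesyl diphosphate synthase, had 12.02, 11.15, 11.26 and 11.13, with the EGFP line high by a log2 ratio of -0.76 for Nr5a2-EGFP and -0.75 for Oct4-EGFP against it. Fdft1, squalene synthase, had 13.18, 12.26, 13.34 and 13.35, with the Oct4-EGFP line low and ratios of 0.16 and 1.09. Sqle, squalene epoxidase, had 13.53, 14.23, 14.14 and 14.31, with the EGFP line low. Lss, lanosterol synthase, had ratios of 0.52 and 0.42, and Cyp51, lanosterol demethylase, 0.34 and 0.35, both a little higher in the Nr5a2-EGFP line. The dimmer Fdft1 probe had 9.45, 9.95, 9.44 and 9.51, with the Oct4-EGFP line high and ratios of -0.01 and -0.44, so the direction over Oct4-EGFP turned with the probe.

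Among the late steps, the Oct4-EGFP line stood apart as high for Tm7sf2 and Sc5d, whereas for Dhcr7 it was lowest of graded levels. Tm7sf2, a sterol reductase, had 9.72 (EGFP), 10.84 (Oct4-EGFP), 9.43 and 9.54 (Nr5a2-EGFP) at chr19:6063541-6063600, high in the Oct4-EGFP line alone. The ratio over Oct4-EGFP was -1.30 (2.46-fold lower) and over EGFP -0.28. Its other probe gave -1.20 and -0.38. Sc5d, the sterol desaturase, had 7.81, 8.68, 7.86 and 7.95, again high in the Oct4-EGFP line. Nsdhl had ratios of 0.04 and -0.54 and an indirect ratio of 0.58. Its other probe gave -0.47 and -0.38, with an indirect ratio of -0.09. The Oct4-EGFP line was thus high at the brighter Nsdhl probe only. Unlike Tm7sf2 and Sc5d, Dhcr7, which catalyses the last reduction to cholesterol, was lowest in the Oct4-EGFP line. Its levels were 11.81, 10.61, 11.41 and 11.20 at chr7:151033874-151033933. Both Nr5a2-EGFP readings of Dhcr7 lay between the other lines, the ratios were -0.41 and 0.59, and the Cy3 levels of Oct4-EGFP and EGFP differed by -1.21. Hsd17b7 had 0.26 and 0.50, with 0.04 and -0.37 at its other probe.

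**Figure D3:**
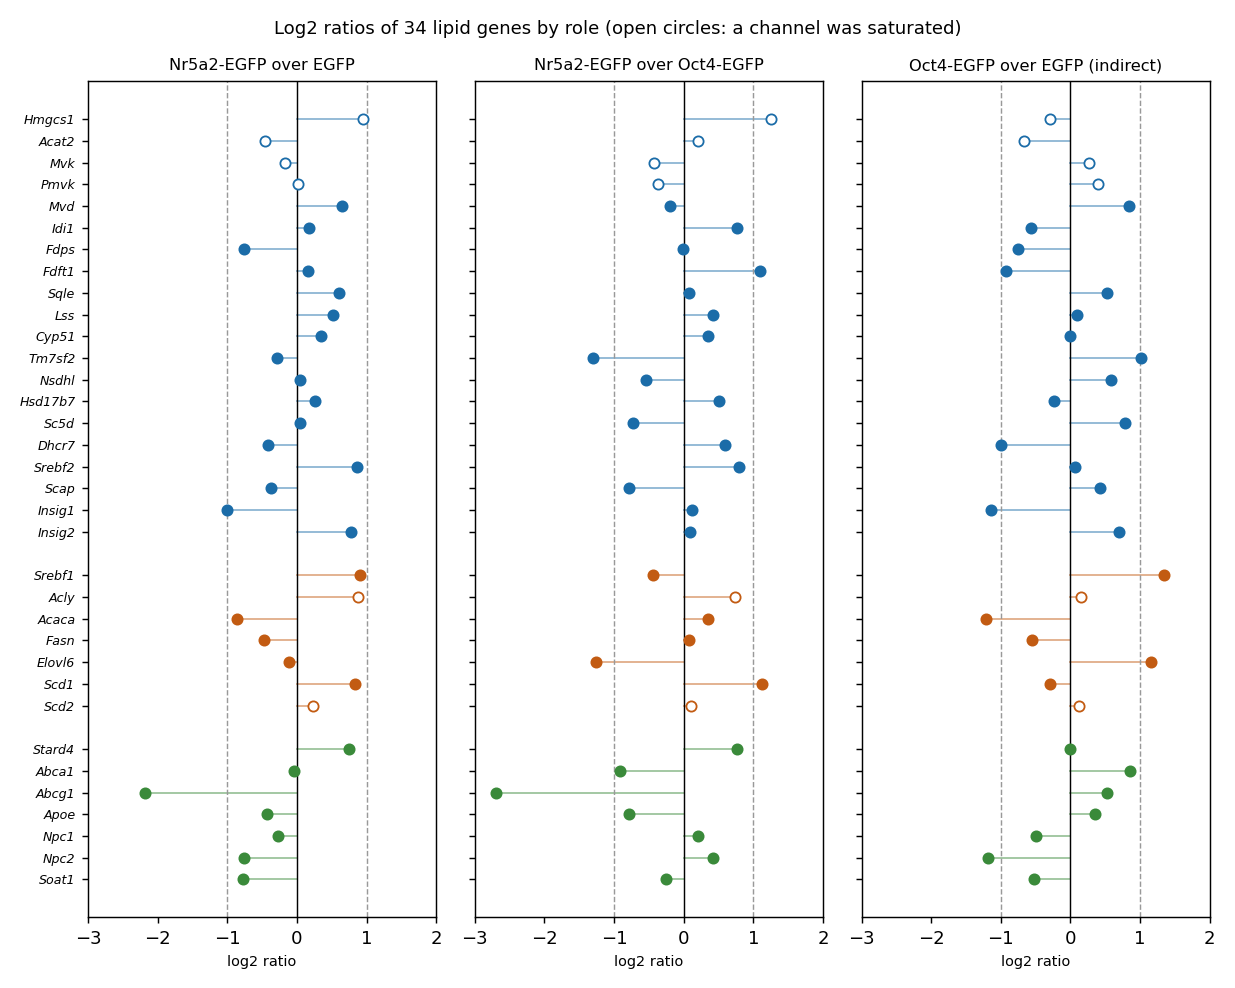
Log2 ratios of the brightest probe of each gene over EGFP, over Oct4-EGFP and for Oct4-EGFP over EGFP, coloured by role, with dashed lines at the 2-fold mark; open circles had a saturated channel. Tm7sf2 and Dhcr7 lie on opposite sides in the panels that involve Oct4-EGFP, and Abcg1 is below -2 in both direct panels.

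In fatty acid synthesis, Acly, which makes cytosolic acetyl-CoA from citrate, had 14.80, 14.97, 15.69 and 15.70. The last pair was saturated, so after loess Nr5a2-EGFP was at least 1.84-fold above EGFP and at least 1.66-fold above Oct4-EGFP at this probe. With the software's processed signals its log2 ratios were lower, at 0.73 and 0.50. The dimmer Acly probe had 12.98, 13.30, 12.79 and 12.89, with the Nr5a2-EGFP line lowest. Acaca, acetyl-CoA carboxylase, had 11.33, 10.17, 10.47 and 10.53, with the EGFP line high, ratios of -0.86 and 0.35, and an indirect ratio of -1.21 (2.32-fold lower in Oct4-EGFP). A dimmer probe elsewhere in Acaca had 8.21, 8.19, 8.49 and 8.31, where the EGFP line was not high. Fasn, fatty acid synthase, had 8.73, 8.22, 8.25 and 8.30, in the same order of lines as Acaca but with smaller differences (-0.47 and 0.08). Elovl6, which lengthens the chains, had 11.10, 11.89, 10.99 and 10.63, high in the Oct4-EGFP line, with -0.11 over EGFP and -1.26 over Oct4-EGFP. Read against the other Nr5a2-EGFP level, the second ratio was -0.90 and no longer called.

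The desaturases put a double bond into the finished chains. Scd1 had 14.30, 13.89, 15.13 and 15.01, with both Nr5a2-EGFP readings above the other lines and ratios of 0.83 and 1.12 (2.17-fold). Scd2 was saturated in both Nr5a2-EGFP readings and, after loess, was at least 1.17-fold and at least 1.08-fold higher there. Its log2 ratios were -0.00 and -0.18 with the software's processed signals, and 0.24 and 0.12 in the authors' deposited table. Whether Scd2 was higher at all thus depended on the processing.

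Sterol transport held the largest difference of the members. Abcg1, a cell-surface pump for cholesterol efflux and a classical LXR target, had 11.52 in the EGFP line, 12.69 in the Oct4-EGFP line, and 9.34 and 9.99 in the Nr5a2-EGFP line (chr17:31252580-31252639). Both Nr5a2-EGFP readings were below both other lines by more than the 0.65 between them. Its ratio over EGFP was -2.18 (4.52-fold lower) and its ratio over Oct4-EGFP -2.70 (6.49-fold lower). With the Nr5a2-EGFP reading exchanged between the arrays they were -1.52 and -3.35. Abcg1 was measured by 1 probe.

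The partner efflux gene Abca1, also an LXR target, had 8.61, 9.30, 8.57 and 8.40, so that the EGFP and Nr5a2-EGFP lines were close (-0.04) and the Oct4-EGFP line high (ratio -0.91). Apoe, the lipoprotein component that accepts effluxed sterol, had 10.89, 11.51, 10.46 and 10.73, with ratios of -0.43 and -0.78. It was printed 10 times, and the SD among its spots was 0.027 and 0.019, which covers error on the slide alone. Stard4, a cytosolic sterol carrier and SREBP2 target, had 12.34, 12.59, 13.09 and 13.34 and was the transport gene with ratios above 0.5, at 0.75 and 0.76. Of the LXR genes, Nr1h2 had 0.09 and 0.23, and Nr1h3 had 0.34 and 0.06 at its brightest probe and 0.75 and 1.23 at another, which was above background in 3 of 4 readings.

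Npc1 and Npc2 pass cholesterol out of the lysosome. Npc1 had 8.32, 7.90, 8.05 and 8.12, with ratios of -0.27 and 0.21. Npc2 had 11.17, 10.89, 10.41 and 11.31, and its Nr5a2-EGFP readings lay 0.90 apart on either side of the other lines. Its ratio over EGFP was -0.76 on its own array and 0.14 with the other reading, and its called indirect ratio of -1.18 was -0.28 from the Cy3 levels. Soat1, which esterifies cholesterol for storage, had 11.68, 11.07, 10.90 and 10.83, with the EGFP line high and ratios of -0.77 and -0.25.

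Insig2, Hsd17b7 and Soat1 lie on chromosome 1 beyond 70 Mb, where 1011 genes had a median of 0.22 over EGFP and 1009 genes one of 0.18 over Oct4-EGFP. The ratios of the 3 genes stood on both sides of these medians, and the part of the region in them was not tested.

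Probes of the same gene did not always give the same ratio. Of the 10 members with several probes above background, 2 had probes at least 1 apart on the log2 scale over EGFP, 2 over Oct4-EGFP and 3 in the indirect comparison. In Srebf2, Fdft1 and Acly the brighter probe had ratios above 0 in both direct comparisons and the dimmer one below 0 in both. For 5 of these probes the first 30 of the 60 bases are given as deposited.
Srebf2 brighter probe (chr15:82034765-82034824): aactaggtctttgcaccagagagcattttg
Srebf2 dimmer probe (chr15:82030068-82030127): atccagctgttcacctgtgacctgctactg
Fdft1 brighter probe (chr14:63765750-63769990): agagatttatcactggatccccaactcaga
Acly brighter probe (chr11:100337674-100337733): gccacctcagtctcttctctgtgttatcta
Acly dimmer probe (chr11:100365518-100365577): tctgagtcccgagctgatgaagtggcacct
Positions are mm9; exon and UTR annotation of that build was not used here. The brighter Fdft1 probe spans 4241 genomic bases, so it crosses an intron, and it gave 1.09 over Oct4-EGFP where the dimmer gave -0.44. The Acly probes gave 0.88 and -0.19 over EGFP and 0.73 and -0.41 over Oct4-EGFP. By contrast, the brightest Acaca probes, which are shifted by 1 base, gave -0.86 and -0.82 over EGFP and 0.35 and 0.34 over Oct4-EGFP, and the next brightest (chr11:84009021-84009080) gave 0.28 and 0.11.
Acaca brightest probe (chr11:84215094-84215153): cttcagtccaatgcactcttctcacgtttt
Acaca second probe (chr11:84215093-84215152): gcttcagtccaatgcactcttctcacgttt

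**Figure D4:**
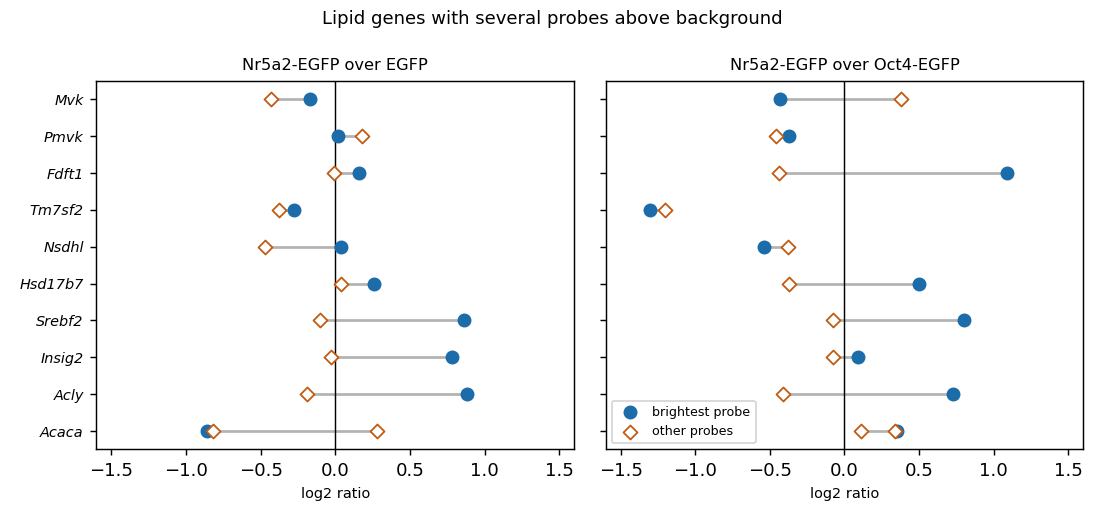
Log2 ratios of every probe above background for the 10 lipid genes with more than 1 such probe, over EGFP (left) and over Oct4-EGFP (right); filled circles are the brightest probe. Tm7sf2 and Pmvk have probes that lie together, while Fdft1, Acly and Srebf2 have probes on opposite sides of 0 over Oct4-EGFP.

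Other genes of the same pathways, a list of 38 of which 37 were measured, were counted in the same way. Over EGFP 1 was called higher and 4 lower, over Oct4-EGFP 4 and 4, and in the indirect comparison 1 and 5, beside the shares of all genes given above. Ebp, a sterol isomerase of the late steps, had 0.13 and -1.21, high in the Oct4-EGFP line like Tm7sf2.

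Of the remaining called genes over EGFP, Aacs (1.15), which makes acetoacetyl-CoA, was higher, and Fads1 (-1.34), a fatty acid desaturase, Thrsp (-1.63), a lipogenic factor, Lrp8 (-1.36), a lipoprotein receptor, and the oxysterol hydroxylase gene Cyp7b1 (-1.06) were lower. Thrsp (-1.83) and Lrp8 (-1.91) were also called lower over Oct4-EGFP, as was Acacb (-1.16). The fatty acid binding protein gene Fabp3, saturated in the Nr5a2-EGFP line, was at least 2.92-fold higher there than with Oct4-EGFP. Acsl4, an acyl-CoA synthetase gene, likewise saturated, was at least 2.9-fold higher, and Pparg had 1.30. Fads1 (-1.35), Cyp7b1 (-1.36), Fabp3 (at least 4.49-fold from the Cy3 levels) and Acsl4 (2.37-fold from the Cy3 levels) were among the genes called lower in the Oct4-EGFP than in the EGFP line, and Ebp (1.34) the gene called higher.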

How the data were processed

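Total RNA of 3 clones was read on 2 two-colour Agilent arrays of design 026655 (probe positions on mm9, per the file headers). The deposited intensity of each spot came from Agilent's Feature Extraction: the file headers give its version as 10.7.3.1, and 9.3.2.1 is named in the submitters' processing notes. The processed intensity and its log10 ratio of Cy5 over Cy3 were, per the file headers, background-subtracted, detrended and dye-normalized. In the authors' deposited table the values are log2 ratios. They followed the scanner ratio at r = 0.997 and 0.996 across probes, with medians of 0.03 and 0.05, which settles the direction. The steps by which they were scaled and centred stay unknown. Flags for saturation, outliers and signal well above background are as deposited, with no other score used.

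From mean signals and local background, normexp correction (offset 50) and loess were applied with limma 3.58.1 under R 4.3.3, control and outlier-flagged spots (530 and 523) being given no weight and left out. Saturated spots were kept and give bounds on the loess scale, which need not hold under other processing. In both direct comparisons 6 of the 34 members had a saturated channel at their brightest probe. Aquantile scaling between arrays gave the levels. Repeat spots were averaged per probe, and the brightest probe stood for a gene. Genes entered if well above background in at least 1 channel used. Symbols were updated by accession through RefSeq (GRCm38.p6), where 66.1% of probes matched, while members were matched by the file's name. With 2 arrays, their number limits the precision. Levels were not compared between genes. Only background correction and loess were tested on simulated data, as 1 array without saturated or outlier-flagged spots. The later steps were not. The rule for named genes took all members, list genes past the 2-fold mark, reference genes for the scaling and Nr5a2 and Pou5f1. The LXR genes Nr1h2 and Nr1h3 were named after their values were seen. Some genes of the wider pathway list and 1 probe sequence are counted but not reported here. The members and lists were chosen with earlier results of these data known.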

Additional observations from a re-analysis of the deposited data

How the results depend on the processing

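The medians of the 34 genes kept within 0.30, the SD between the repeat readings, under every alternative run. That SD describes single genes and is a wide mark for a median. Centring on the median moved the members' median from 0.03 to 0.16 over EGFP and from 0.10 to 0.28 over Oct4-EGFP. The median of all genes was then 0.16 and 0.09. Over EGFP, where 0 genes were called higher and 2 lower, centring on the median gave 5 and 1, and the software's processed signals and the authors' deposited table each gave 1 higher (Srebf1). A mark of 0.58 in place of 1 gave 9 higher and 6 lower over EGFP, 8 and 7 over Oct4-EGFP, and 8 and 7 in the indirect comparison, a looser mark by construction. No called ratio of a member changed sign under an alternative. Of the single ratios, the mean over probes moved 15 by more than 0.30, the Nr5a2-EGFP level of the other array moved 6 and the Cy3 levels 3. The last 2 settings did so through Elovl6, Abcg1 and Npc2. Both change a ratio by the difference of the repeat Nr5a2-EGFP readings, so they restate that difference and are not separate checks. The software's signals moved 1, Mvk. The mean over probes ended the calls of Fdft1 over Oct4-EGFP (0.32) and of Tm7sf2 and Acaca (-0.73) in the indirect comparison. Over Oct4-EGFP, Hmgcs1 was no longer counted without saturated spots, Scd1 with the software's signals, and Elovl6 with the other reading, where Apoe was called lower instead. Centring on the median added Srebf2 as higher over Oct4-EGFP. In the indirect comparison, the software's signals and the deposited table each added Dhcr7 as lower. Counts over all genes, higher and lower, were 869 and 1317 over EGFP, 1185 and 1856 over Oct4-EGFP and 1708 and 1542 in the indirect comparison. With the software's signals they were 1784 and 2127, 1958 and 2600, and 2632 and 2510. With the deposited table they were 1785 and 2115, 2044 and 2535, and 2482 and 2535, and centring on the median gave 1556 and 895 over EGFP. The cause was not tested. Among reference genes, Actb had log2 ratios of -0.33 and 1.44, Gapdh 0.59 and 0.01, Hprt -0.10 and 0.28, and Tbp 0.09 and 0.44 over EGFP and over Oct4-EGFP. The repeat Nr5a2-EGFP readings of Actb lay 0.82 apart, so its ratios depend on which reading is used. Saturation limits the high end and background the low end of the scale. No paired analysis was possible because each comparison has 1 array and no replicate.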
